A study of Mus musculus with 28 samples.

Results

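The response of mouse embryonic stem cells (ESCs) to Pou4f3 expressed together with Atoh1, with no Gfi1 transgene, was measured in the iP+A line as 2 libraries with doxycycline (Dox) against 2 without, 4 of the 28 RNA-seq libraries of the series, chosen by their labels. iP+A cells came from the parental line A2loxCre and carried a Dox-inducible cassette, Myc-Pou4f3-2A-Atoh1-Flag-2A-mVenus, in which the last product is a fluorescent reporter. ESCs were aggregated into embryoid bodies (EBs), which differentiate into a mixture of early cell types. Dox was added at day 4 at 2 µg/ml for 48 h, and at day 6 the Venus+ cells were isolated by FACS, whereas the No Dox libraries came from whole untreated EBs of day 6 that were not sorted. Dox, the transgenes and the sort therefore cannot be told apart in any difference between the groups. The replicates were different clones of the line. For comparison, the iAtoh1 line carried Atoh1 alone, the iPou4f3 line Pou4f3 alone and the iGPA line Gfi1, Pou4f3 and Atoh1, each with 2 Dox and 2 No Dox libraries made in the same way.

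Atoh1 is a proneural basic helix-loop-helix (bHLH) factor required for inner ear hair cells and for sets of hindbrain and spinal cord neurons. Pou4f3 is a POU homeodomain factor that hair cells need to survive, and its close relatives Pou4f1 and Pou4f2 are expressed in sensory and retinal ganglion neurons. Gfi1 is a zinc finger repressor that acts with them in hair cells. Neurons of sensory ganglia are marked by factors such as Pou4f1, Prrxl1 and Isl1, by neurotrophin receptors of the Trk family and by effectors such as peripherin and ion channels of pain and touch.

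The deposited values were log2(normalized count + 1) for 19421 genes, of which 16837 passed a filter on low values (10 or more normalized counts in 2 or more libraries). Values are given here as normalized counts, which are not divided by gene length, and levels are compared between samples, not between genes. The 4 iP+A libraries held an estimated 39.6 to 42.8 M reads (30.3 to 48.0 M over all 28), 17885 to 18074 genes above 0, and 3.72% to 4.39% of their counts in the 10 most abundant genes. A Dox effect is a log2 fold change, with its standard error (SE) and Benjamini-Hochberg adjusted p, from 1 limma fit across the 14 groups. A gene was called when its log2 fold change was 1.5 or more in size and its adjusted p below 0.05, and only called genes are said to rise or fall. In bulk samples a smaller number of cells of a type cannot be told apart from less RNA per cell.

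Both transgene loci were high in both Dox libraries. Atoh1 counts were 29.6 and 46.8 in the No Dox libraries and 14888 and 12816 with Dox (log2 fold change 8.50 ± 0.33 SE, limma adjusted p = 6.47e-12). Pou4f3 counts were 18.4 and 23.8 without Dox and 12878 and 10868 with it (9.07 ± 0.46). Reads of the endogenous genes and of the cassette cannot be told apart at these loci. Set beside the lines with other cassettes, the mean Atoh1 count with Dox was 20119 in iAtoh1 and 17918 in iGPA, and the mean Pou4f3 count was 5037 in iPou4f3 and 14076 in iGPA. Gfi1, for which iP+A had no transgene, had 27.3 and 33.0 normalized counts without Dox and 85.9 and 107 with it, against a Dox mean of 8792 in iGPA. This increase was called (1.65 on the log2 scale), but it was 0.71 and not called when the 14 untreated libraries of all lines served as controls, and 1.49 without Dox replicate 2.

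Of the 16837 genes tested, 792 rose (4.7%) and 435 fell (2.58%) with Dox in iP+A. The median log2 fold change over all tested genes was -0.03. The single lines had fewer calls, with 486 up (2.89%) and 424 down (2.52%) in iAtoh1 and 248 up (1.47%) and 102 down (0.606%) in iPou4f3, and iGPA had more, with 1456 up (8.65%) and 894 down (5.31%). Of the 792 genes that rose in iP+A, 255 (32.2%) were also called up in iAtoh1, where they made up 52.5% of the rises, and 200 (25.3%) were called up in iPou4f3, where they made up 80.6%. In neither single line were 392 of them (49.5%) called up, but the test of the difference itself called a larger effect in iP+A than in both single lines for 67 of these 392 and larger than in neither for 197. Over all tested genes a larger effect was called for 2.09% against iAtoh1 and 1.44% against iPou4f3. With iGPA, iP+A shared 515 rises, 65.0% of its own and 35.4% of those of iGPA. Among the 435 genes that fell, 156 (35.9%) also fell in iAtoh1, 26 (6.0%) in iPou4f3 and 184 (42.3%) in iGPA.

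Neuronal gene lists held the largest shares of risen members. The lists were drawn up from textbook knowledge and from the markers of the study, with earlier results of these data known, and some genes stand in more than 1 list. Of the 42 genes of the neuronal cytoskeleton and RNA-binding list, 29 rose and 0 fell, with a median log2 fold change of 2.24. Of the 9 proneural and neuronal bHLH factors that passed the filter, out of 16 in the table, 7 rose. The filter counted Dox libraries as well, so a member that was low without Dox, such as Nhlh2, could pass it through its rise. The bHLH share can therefore be raised by the filter itself. The zinc finger and other early neuronal factors had 14 of 25 up, with a median of 1.58. The share was lower in the sensory lists, where 12 of 30 factors and receptors and 11 of the 47 effectors that passed the filter rose. In these lists 9 factors and 8 effectors rose in iAtoh1, 2 and 3 in iPou4f3, and 18 and 20 in iGPA, beside 2.89%, 1.47% and 8.65% of all tested genes in these lines. The iP+A effect was larger than in iAtoh1 for 3 factors and smaller for 3, and larger for 3 effectors and smaller for 1, beside 2.09% and 0.689% of all tested genes. Against iGPA it was larger for 2 factors and smaller for 8, and larger for 2 effectors and smaller for 7, beside 2.84% and 4.76% of all tested genes. Pou4f1 and Sncg, described below, are among the few with a larger effect than in iAtoh1. The counts in iP+A stand beside the 4.7% of all tested genes that rose there.

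**Figure D1:**
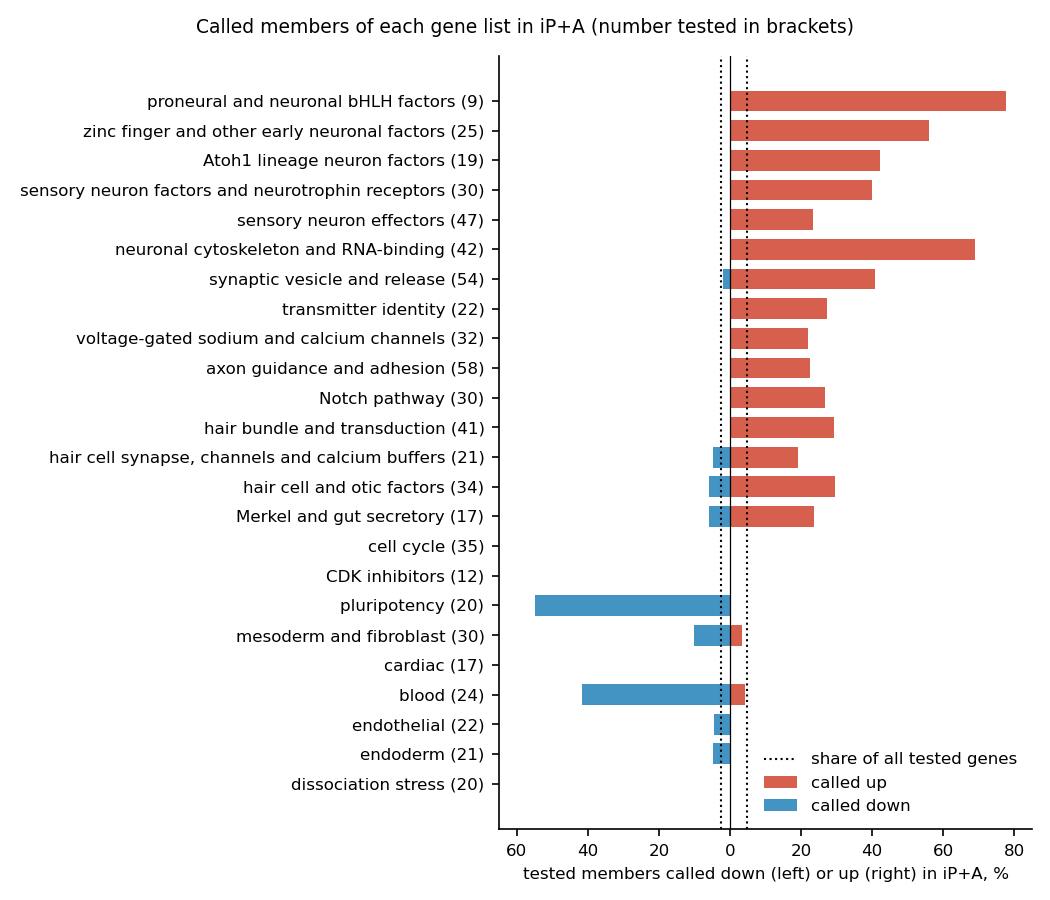
Percentage of the tested members of each gene list that was called up (red, to the right) or down (blue, to the left) with Dox in iP+A, with the number of members tested in brackets and dotted lines at the shares over all tested genes (4.7% up, 2.58% down). The neuronal lists at the top extend far beyond the dotted line on the right, and the pluripotency and blood lists extend to the left. The bHLH bar counts only the 9 of 16 members that passed the filter.

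The bHLH list was led by Nhlh1 and Nhlh2. Nhlh1, a factor of newborn neurons, had 17.3 and 11.0 normalized counts without Dox and 2610 and 1806 with it (7.19 ± 0.51, limma adjusted p = 9.95e-09). Nhlh2, its close relative, went from 0 and 0.919 to 229 and 134 counts. In both genes the groups were far apart. Neurod1, which promotes neuronal differentiation, had 23.4 and 16.5 counts without Dox and 647 and 437 with it (4.69 ± 0.61). Bhlhe22 (5.72), a factor of neuronal subtypes, also rose. The earlier determinants Neurog1, with 25.3 and 14.4 counts in the Dox libraries, and Neurog2, with 17.2 and 20.1, were called up but stayed at low levels. The Neurog2 call was lost without Dox replicate 1, Dox replicate 2 or No Dox replicate 2 (1.95 to 2.76). Neurod4 reached 6.34 and 4.81 counts with Dox and did not pass the filter.

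The list of zinc finger and other early neuronal factors was led by Myt1 and Insm1. Myt1, a zinc finger factor of neuronal differentiation (NCBIM37, chr2:181498037-181562502, plus strand), went from 5.27 and 2.36 normalized counts to 5900 and 4037 (10.05 ± 0.43, limma adjusted p = 1.35e-11). Insm1, a zinc finger factor of neuronal progenitors and endocrine cells that outer hair cells also use (chr2:146047657-146050752, plus strand), rose from 12.2 and 13.8 to 4579 and 3540 (8.17 ± 0.49). Ebf1, a factor of early neuronal differentiation that other lineages also use, had 40.7 and 105 counts without Dox and 3973 and 2684 with it (5.62). The Dox libraries were above the No Dox libraries in each of these genes. Onecut2 (4.92), Scrt1 (4.61), Ebf3 (4.22) and Myt1l (3.56) rose as well. Myt1 was also called up in each single line, but less: its effect was 1.65 in iAtoh1 and 5.67 in iPou4f3, and the iP+A effect was larger by 8.40 ± 0.61 and 4.39 ± 0.61. For Insm1, the iP+A effect exceeded that of iAtoh1 (3.53) by 4.64 and that of iPou4f3 (2.80) by 5.37, and both differences were called.

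Of the 19 factors of Atoh1-dependent neurons, mostly homeodomain proteins, 8 rose and 0 fell, with a median of 0.85. Barhl2, a homeodomain factor of dorsal spinal cord and retinal neurons and 1 of the 3 neuronal markers that the study used, had 2.04 and 4.59 counts without Dox and 743 and 533 with it (7.26 ± 1.08, limma adjusted p = 7.16e-05). Barhl1, which maintains Atoh1-lineage neurons and hair cells, had 5.09 and 7.36 without Dox and 1173 and 885 with it (7.16). Both sets of Dox libraries lay clearly above the untreated ones. The Barhl1 effect was larger than in iAtoh1 by 4.30 and larger than in iPou4f3 by 5.32, whereas the Barhl2 effect was also called in both single lines (3.47 and 3.93), and its differences from them, 3.78 ± 1.53 (limma adjusted p = 0.187) and 3.33 ± 1.53 (adjusted p = 0.314), were not called. Lhx5, a LIM homeodomain factor of spinal neurons, rose from 5.09 and 5.52 to 67.0 and 94.2 (3.68), and it also rose in iPou4f3 (4.70).

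The sensory neuron factors Pou4f1 and Prrxl1 rose most among the 30 tested in their list, where 12 rose, 0 fell and the median was 0.77. Pou4f1, the POU factor of sensory ganglia (NCBIM37, chr14:104862737-104867216, minus strand), had 15.3 and 45.0 normalized counts without Dox and 2346 and 1752 with it (6.21 ± 0.50, limma adjusted p = 4.95e-08). Its groups did not overlap. The Dox effect on Pou4f1 was 0.05 in iAtoh1, 1.80 in iPou4f3 and 3.62 in iGPA, and the iP+A effect was larger than each of them, by 6.16 ± 0.71, 4.41 ± 0.71 and 2.59 ± 0.71, all called. The last call, against iGPA, was lost without iP+A Dox replicate 1, iP+A No Dox replicate 1, iGPA Dox replicate 2 or iGPA No Dox replicate 1 (1.84 to 2.45). Prrxl1, a paired homeodomain factor of nociceptive circuits (chr14:33412594-33462432, plus strand), went from 7.30 and 3.30 counts to 667 and 511 (6.61 ± 0.70). Its effect was called in all 4 lines, at 2.96 in iAtoh1, 4.16 in iPou4f3 and 8.99 in iGPA. Isl1, a LIM homeodomain factor shared by sensory and motor neurons, had 628 and 540 counts without Dox and 2538 and 2257 with it (2.04). The Isl1 effect was larger in iGPA (4.49), and this difference was called at -2.45 (-1.92 with no call without iGPA No Dox replicate 2).

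The upstream bases of the sensory genes are shown for the members with the largest rises: Prrxl1 and Pou4f1 in the factor list and Sncg in the effector list. They are RefSeq sequences of GRCm38.p6, 250 bases that end just before the annotated start, 5′ to 3′ on the strand of the gene, with CAGCTG in capitals, an E-box core of the kind that bHLH factors bind and that reads the same on both strands. The windows lie at chr14:104468000-104468249 on the minus strand for Pou4f1, chr14:32599677-32599926 on the plus strand for Prrxl1 and chr14:34374670-34374919 on the minus strand for Sncg.
Pou4f1: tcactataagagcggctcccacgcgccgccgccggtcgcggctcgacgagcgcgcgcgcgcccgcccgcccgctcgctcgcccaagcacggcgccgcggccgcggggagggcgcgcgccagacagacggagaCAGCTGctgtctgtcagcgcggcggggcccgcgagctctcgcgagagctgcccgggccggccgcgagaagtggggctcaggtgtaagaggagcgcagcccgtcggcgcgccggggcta
Prrxl1: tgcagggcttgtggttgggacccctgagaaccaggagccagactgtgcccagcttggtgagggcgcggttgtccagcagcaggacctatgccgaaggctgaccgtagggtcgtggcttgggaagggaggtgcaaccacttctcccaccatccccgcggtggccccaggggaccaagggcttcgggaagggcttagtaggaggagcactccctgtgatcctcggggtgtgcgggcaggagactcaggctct
Sncg: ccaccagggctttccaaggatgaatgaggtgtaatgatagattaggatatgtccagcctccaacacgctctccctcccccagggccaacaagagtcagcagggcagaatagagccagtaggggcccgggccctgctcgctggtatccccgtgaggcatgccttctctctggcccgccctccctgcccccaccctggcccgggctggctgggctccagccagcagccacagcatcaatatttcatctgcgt
The Pou4f1 window held 1 match, whose first base lay 118 bases before the start. Of the 10 leading genes of the sensory lists, 8 had an entry in the promoter table (Gfra3 and Ntrk3 had none), and 1 of these 8 held the motif, beside 13.0% of all 32851 windows of this length. A match is a description of the letters and not a sign of binding.

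Receptors for neurotrophic factors were among the risen members of this list. Ntrk2, the receptor for BDNF, had 84.4 and 122 normalized counts without Dox and 1020 and 891 with it (3.22 ± 0.59, limma adjusted p = 5.40e-04). Ntrk3, the receptor for NT-3, had 21.8 and 14.1 without Dox and 186 and 176 with it (3.29). In both genes the Dox libraries lay above the No Dox libraries. The Ntrk2 effect was -0.90 in iAtoh1, a called difference of 4.12 ± 0.83. Gfra3, the receptor for artemin, rose from 62.0 and 70.8 to 1407 and 1109 (4.22), with an effect of 5.87 in iAtoh1 and 0.21 in iPou4f3. Runx1 and Runx3, factors of nociceptor and proprioceptor subtypes, were not called (-1.40 and 0.21).

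Sensory neuron effectors rose in part. Sncg, gamma-synuclein, which is abundant in sensory and retinal ganglion neurons (NCBIM37, chr14:35183460-35187975, minus strand), had 41.8 and 38.6 normalized counts without Dox and 7800 and 6324 with it (7.42 ± 0.37, limma adjusted p = 1.29e-10). Prph, the intermediate filament peripherin, had 785 and 384 counts without Dox and 11274 and 10357 with it (4.30). These genes followed different single lines: the effect on Sncg was -0.15 in iAtoh1 and 6.86 in iPou4f3, and that on Prph was 4.34 in iAtoh1 and -0.01 in iPou4f3. Chrna3, a nicotinic receptor subunit of ganglion neurons, rose from 20.3 and 21.1 to 684 and 362 (4.52). Asic1, an acid-sensing channel (3.31), Adcyap1, which encodes the peptide PACAP (3.90), and Pirt, a regulator of TRPV1 (3.62), were also called up. Scn9a, the sodium channel of nociceptors, had 6.85 and 1.38 counts without Dox and 62.3 and 54.0 with it (3.77), and this call was lost when Dox replicate 1, Dox replicate 2 or No Dox replicate 2 was left out. Late nociceptor products were low or were not called: Trpv1, the capsaicin receptor, was listed at 0 in both Dox libraries, Mrgprd had 0.905 and 1.92 counts there and did not pass the filter, and Calca, which encodes the peptide CGRP, had a log2 fold change of -0.40. Piezo2, the touch channel, had 1469 and 1492 counts with Dox against 786 and 906 without, below the fold threshold (0.81, adjusted p = 0.0277).

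**Figure D2:**
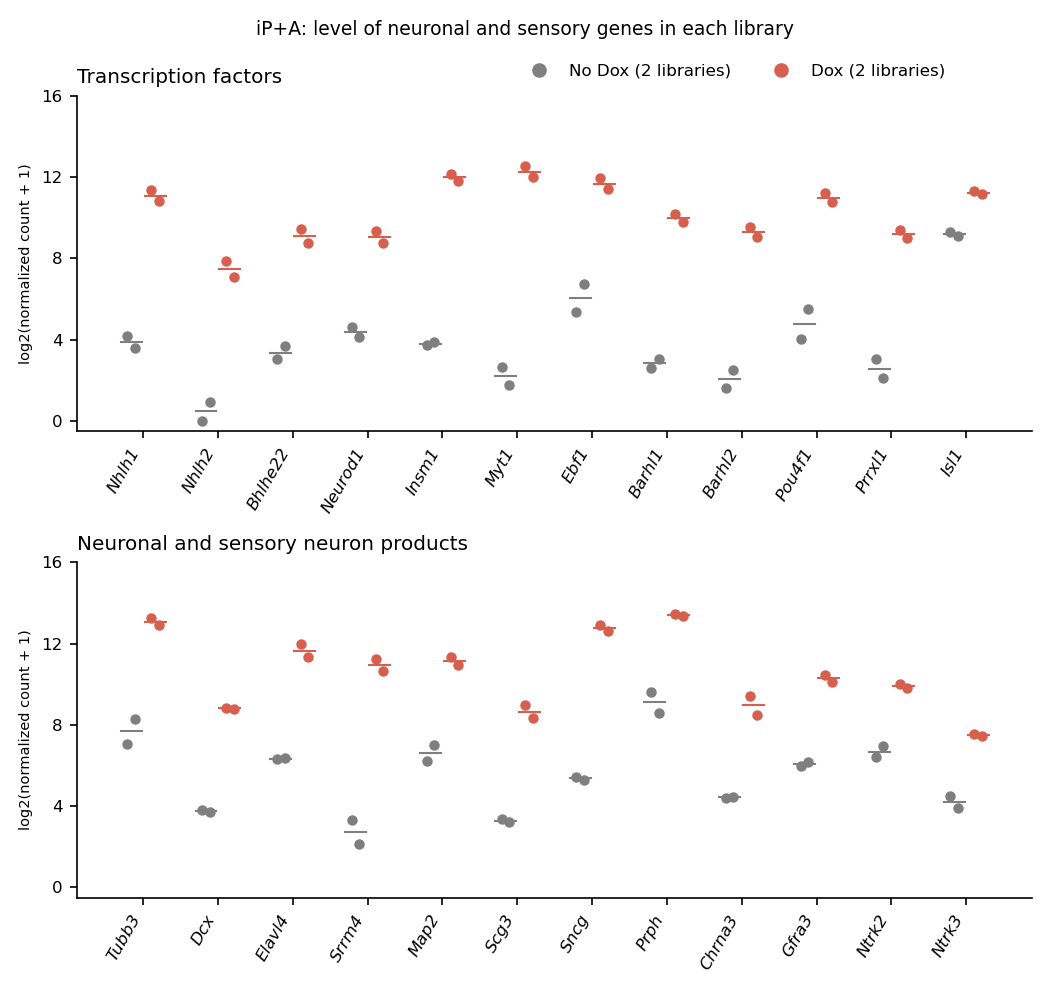
Level of 24 neuronal and sensory genes in the 2 No Dox (grey) and 2 Dox (red) libraries of iP+A, as log2(normalized count + 1), with a short line at the mean of each pair. In each of the 24 genes both red points lie above both grey points, with the widest gap in Myt1 (log2 fold change 10.05) and the narrowest in Isl1 (2.04).

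More structural genes of neurons were called up in iP+A than in either single line. Tubb3, the neuronal tubulin detected by the Tuj1 antibody, had 132 and 312 normalized counts without Dox and 9649 and 7735 with it (5.40 ± 0.36, limma adjusted p = 4.48e-09). Dcx, doublecortin, a microtubule protein of migrating neurons, had 13.2 and 12 without Dox and 458 and 440 with it (5.05). Both markers were far above the untreated libraries. The Tubb3 effect was 2.22 in iAtoh1, 0.69 in iPou4f3 and 1.17 in iGPA, and the iP+A effect exceeded them by 3.19, 4.71 and 4.24, all called. For Dcx the iP+A effect was larger than in iAtoh1 by 2.79 and in iPou4f3 by 2.91, but it differed from that of iGPA (5.49) by -0.44, which was not called. The Dcx call against iAtoh1 was lost without iAtoh1 Dox replicate 2 (2.49), and that against iPou4f3 without iP+A Dox replicate 1, iPou4f3 Dox replicate 1 or iPou4f3 No Dox replicate 2 (2.27 to 2.88). Within the cytoskeleton and RNA-binding list, 9 members rose and 2 fell in iAtoh1 and 3 rose in iPou4f3. Of all tested genes, 2.89% rose and 2.52% fell in iAtoh1, and 1.47% rose in iPou4f3. The Dox effect in iP+A was larger than in iAtoh1 for 16 of the 42 and larger than in iPou4f3 for 19, and smaller in 0 of them for both. The shares over all genes were 2.09% and 1.44%. Compared with iGPA, 14 members had a larger effect and 0 a smaller one, where 2.84% of all genes were called larger.

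Neuron-specific RNA-binding proteins were part of this group. Srrm4, a splicing regulator of neuronal microexons, rose from 8.96 and 3.43 counts to 2439 and 1581 (8.21 ± 0.85, limma adjusted p = 1.11e-06). Its effect was 4.48 in iAtoh1, 2.25 in iPou4f3 and 1.09 in iGPA. The difference from iPou4f3 (5.96 ± 1.20) and that from iGPA (7.12 ± 1.20) were called, whereas the one from iAtoh1 (3.73 ± 1.20, adjusted p = 0.0826) was not. Without iP+A Dox replicate 1 or iPou4f3 No Dox replicate 1 the Srrm4 difference from iPou4f3 was 5.65 and 5.26 and was not called. Elavl4, a Hu protein that stabilizes neuronal mRNAs, rose from 79.8 and 80.6 to 4010 and 2562 (5.30), and Elavl3, its relative, from 108 and 120 to 2360 and 1480 (4.02). Both exceeded their effects in iAtoh1, by 3.66 and 2.93, and in iPou4f3, by 2.22 and 4.91. The Elavl4 call against iPou4f3 was lost without iP+A Dox replicate 1 (1.89), and the Elavl3 call against iAtoh1 was lost on leaving out any of their 8 libraries but iP+A Dox replicate 2 and iAtoh1 Dox replicate 1 (2.04 to 3.01). Gap43, the growth cone protein, had 732 and 483 counts without Dox and 5156 and 5390 with it (3.15 ± 0.37). It fell in iGPA (-3.10), and the difference between iP+A and iGPA was 6.25 ± 0.52 (adjusted p = 7.97e-07).

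Genes of synaptic vesicles and secretion followed, with 22 of 54 tested members up, 1 down and a median of 1.34. Scg3, secretogranin III of dense-core vesicles, rose from 9.15 and 8.28 normalized counts to 496 and 319 (5.36 ± 0.43, limma adjusted p = 4.32e-08). Its effect was 0.57 in iAtoh1 and 0.08 in iPou4f3, and iP+A exceeded them by 4.80 and 5.28. Cpe, the prohormone-processing carboxypeptidase, rose from 417 and 307 to 5227 and 4938 (3.82). Snap25, a fusion protein of synaptic vesicle release, had 12.2 and 11.0 counts without Dox and 229 and 82.7 with it (3.46), so that its Dox libraries differed widely from each other. Syp (3.34) and Syt1 (2.32), vesicle membrane proteins, rose too. Nrxn3, a presynaptic adhesion protein, was called (4.16), with 48.2 and 285 counts in the No Dox libraries, and lost the call without No Dox replicate 1. The iP+A effect was larger than that of iAtoh1 in 15 members (2.09% of all genes) and larger than that of iPou4f3 in 11 (1.44%), and smaller in 0 for both. The single called fall, Pcsk1n (-1.66), was lost without Dox replicate 1, Dox replicate 2 or No Dox replicate 2.

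Transmitter genes rose selectively. Hdc, the enzyme of histamine synthesis, had 80.4 and 46.9 normalized counts without Dox and 3490 and 3096 with it (5.72 ± 0.40, limma adjusted p = 8.63e-09). Hdc had an effect of -0.06 in iAtoh1, 3.43 in iPou4f3 and 0.06 in iGPA, and the iP+A effect was larger than each of these, by 5.78, 2.29 and 5.66, all called. The Hdc call against iPou4f3 was lost without any 1 of their 8 libraries except iP+A No Dox replicate 1 (1.91 to 2.48). Slc17a7, a vesicular glutamate transporter, rose from 19.8 and 36.8 to 1065 and 667 (4.91), whereas Slc17a6, the other main one of neurons, had 18.1 and 9.62 counts with Dox and did not pass the filter. Slc18a2, the vesicular monoamine transporter, went from 1311 and 1210 to 12708 and 10629 (3.21). Gad1, a GABA synthesis enzyme, was not called (-1.04), and Gad2, its relative, was called at 1.52, just past the fold threshold, and lost the call without any 1 of the 4 libraries (1.34 to 1.69). In total 6 of 22 tested transmitter genes rose and 0 fell.

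Of the 58 axon guidance and adhesion genes 13 rose and 0 fell, with a median of 0.57. Unc5d, a netrin receptor, rose from 21.4 and 37.7 to 1473 and 1115 (5.45), and Draxin, a secreted guidance cue, from 35.6 and 50.6 to 1764 and 1391 (5.17 ± 0.22). The Draxin effect was also called in iAtoh1 (3.96) and was -0.45 in iPou4f3, a called difference of 5.62 ± 0.31. Ntng1, netrin-G1, was called at 5.98, but its No Dox counts in iP+A were 3.13 and 2.63 whereas the untreated means of iAtoh1, iPou4f3 and iGPA were 91.4, 215 and 146. With all 14 untreated libraries as controls its log2 fold change was 1.45 and not called. Among 32 sodium and calcium channel genes 7 rose and 0 fell, with a median of -0.02 and 15 of the 32 above 0. Without Dox replicate 1 or No Dox replicate 2 the count was 4, as Scn9a, Scn3a (2.87 to 2.97) and Scn4a (1.70 to 1.72) lost their calls. Cacna1h, a T-type calcium channel of sensory neurons, had 848 and 751 counts without Dox and 3548 and 2883 with it (2.00 ± 0.12).

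**Figure D3:**
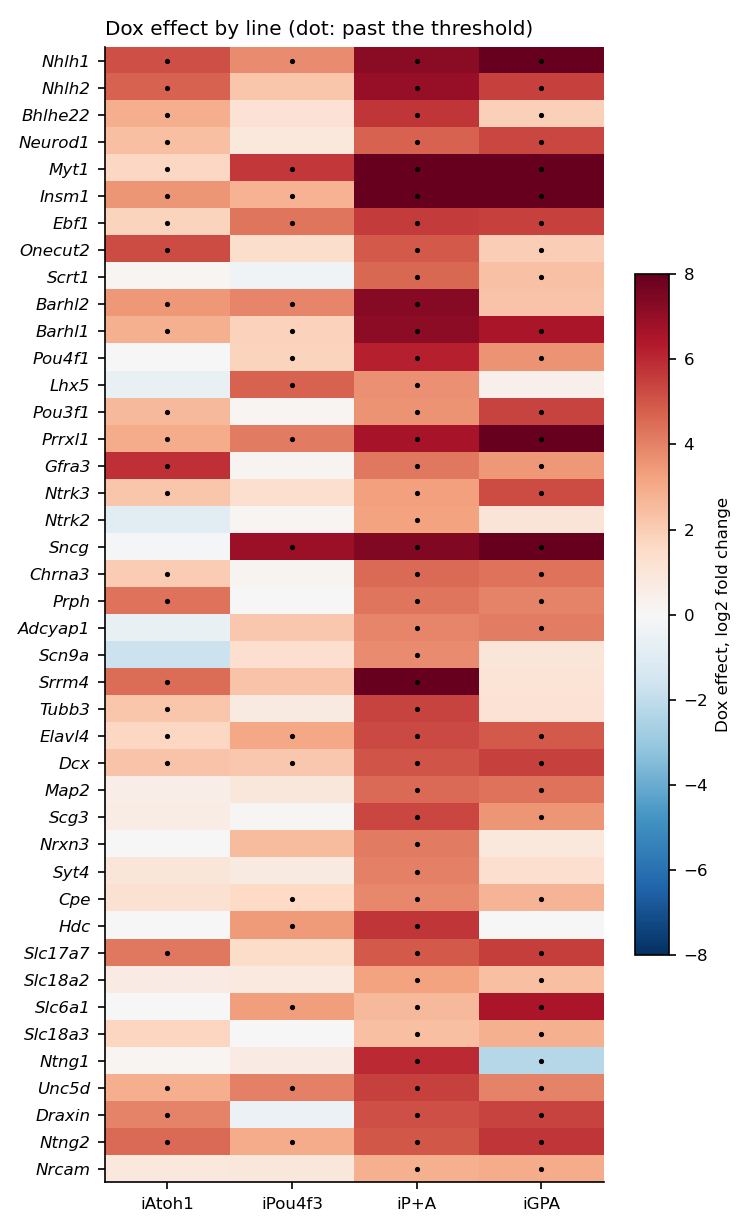
Dox effect (log2 fold change, colour, with effects over 8 in size shown in the end colour of the scale) on called genes of the neuronal and sensory lists in iAtoh1, iPou4f3, iP+A and iGPA, with a dot where the effect was called. The iP+A column is red with a dot in every row because only genes called there are drawn, while Sncg (-0.15), Hdc (-0.06) and Pou4f1 (0.05) are pale in iAtoh1 and Ntng1 is blue in iGPA (-2.31).

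Other genes with the largest increases in iP+A belonged to several families. Miat, a long noncoding RNA of neurons, had 24.4 and 41.4 counts without Dox and 18064 and 17233 with it (9.07), and Nptx1, neuronal pentraxin 1, had 11.2 and 8.27 without Dox and 5892 and 4781 with it (8.96). The Nptx1 effect was 0.17 in iAtoh1, where it was not called, and 7.67 in iPou4f3, where it was. Lrrn3, a leucine-rich repeat neuronal protein, was listed at 0 in both No Dox libraries and had 1003 and 835 counts with Dox, so no fold is given. Six3, a homeodomain factor of the forebrain and eye, went from 4.47 and 2.02 to 2202 and 1987 (9.01), but its antisense neighbour Six3os1 overlaps it on chromosome 17 and rose too, and reads of the 2 genes may be shared. The Six3 effect was -0.58 in iAtoh1, and 1.87 in iPou4f3, where it was not called. Adam11, a neuronal ADAM-family protein (7.45), Tmem132e (7.80) and Gh, growth hormone (8.42), completed, with the transgene loci left aside, the 12 largest rises among genes with no overlap of the groups and a mean of at least 50 counts with Dox, together with the gene of Entrez ID 624918, which has no name in the tables used (8.72), Myt1, Srrm4, Insm1 and Sncg.

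Of the 30 Notch pathway genes 8 rose and 0 fell, with a median of 0.30. Dll3, a Notch ligand family member that acts within the cell, had 68.2 and 108 normalized counts without Dox and 2333 and 1983 with it (4.63 ± 0.68, limma adjusted p = 6.15e-05). Hes6, an inhibitor of Hes1, had 345 and 424 without Dox and 5306 and 5910 with it (3.87), and Mfng, a glycosyltransferase that modifies Notch, had 71.2 and 117 without Dox and 1716 and 1357 with it (4.05). The libraries of these genes were well separated. The same 3 genes rose in iAtoh1 (4.83, 3.74 and 3.41) and were not called in iPou4f3. The ligands Dll4 (2.84), Jag1 (2.59) and Dll1 (1.76) were called up in iP+A, and the Dll1 call was lost without any 1 of the 4 libraries (1.67 to 1.84). Lfng, another Notch-modifying glycosyltransferase, had 334 and 241 counts with Dox against 182 and 149 without, which was not called (0.78), whereas it rose by 4.22 in iAtoh1 and 4.69 in iGPA. The Lfng difference from iAtoh1 was -3.44 ± 0.54. Helt, a bHLH-Orange repressor, had 0 and 1.18 counts in the iP+A Dox libraries against a Dox mean of 207 in iAtoh1 and 252 in iGPA. Notch1 was the third member with a smaller effect than in iAtoh1 (-1.84), where 0.689% of all genes were called smaller, and 8 members had a larger effect than in iPou4f3 (1.44% of all genes).

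**Figure D4:**
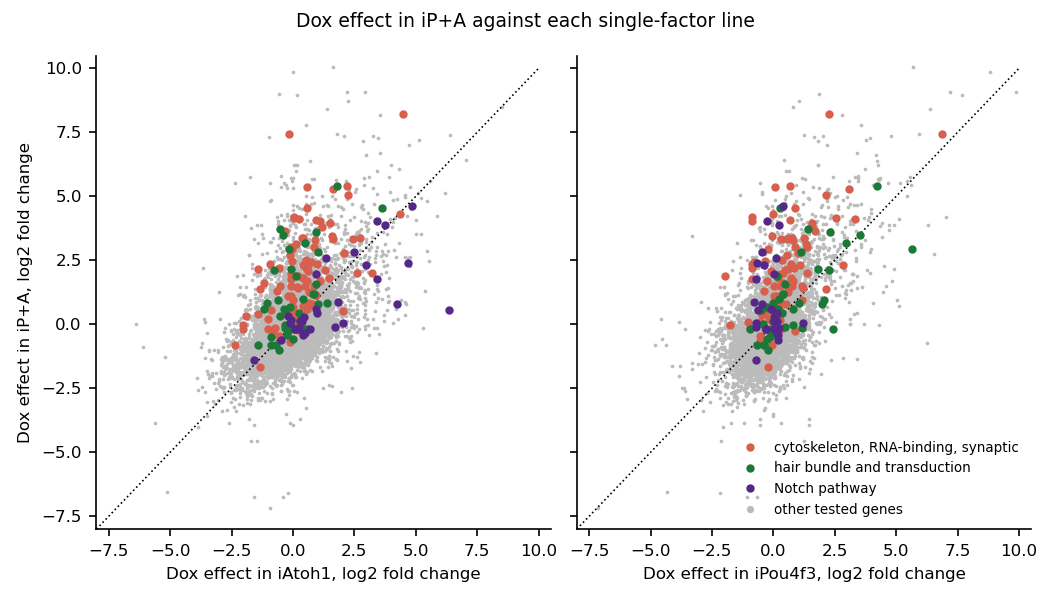
Dox effect in iP+A (vertical axis, log2 fold change) against the effect in iAtoh1 (left) and in iPou4f3 (right) for all tested genes in grey, with the cytoskeleton, RNA-binding and synaptic lists in orange, the hair bundle list in green, the Notch list in purple and equality as a dotted line. Most orange points lie above the line in both panels, purple points lie near or below it on the left, and the transgenes are among the grey points.

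Hair cell genes responded unevenly. Among the 6 hair cell markers that the study used, Otof and Lhx3 were called up and Cdh23, Myo7a, Espn and Myo6 were not. Otof, otoferlin, the calcium sensor of hair cell synapses (NCBIM37, chr5:30669351-30764305, minus strand), had 16.3 and 6.44 normalized counts without Dox and 205 and 136 with it (3.89 ± 0.48, limma adjusted p = 9.61e-06). Its effect was 4.90 in iPou4f3 and -0.13 in iAtoh1. Lhx3, a LIM homeodomain factor of hair cells and motor neurons, had 1.46 and 0 counts without Dox and 47.9 and 28.8 with it (4.61), against a Dox mean of 417 in iGPA. The difference of the Lhx3 effect from iGPA was -3.15 ± 1.09 and was not called (adjusted p = 0.0528). Myo6, the unconventional myosin of stereocilia bases, had 1973 and 2260 counts without Dox and 5091 and 4598 with it, which passed the p but not the fold threshold (1.20, adjusted p = 1.93e-04). Myo7a (-0.17) and Espn (0.67) were not called. Cdh23, a tip link cadherin, was at 23669 to 31395 counts in the 4 libraries, with no separation of the groups (-0.12 ± 0.58). It was also high in untreated iGPA, at 10367 and 36932 counts. In iGPA, Cdh23 (0.33) and Myo7a (0.75) were not called either, whereas Espn (3.10) and Myo6 (2.23) were.

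Of the 41 hair bundle and transduction genes that passed the filter, out of 45 in the table, 12 rose and 0 fell, with a median of 0.58. Ush1g, a scaffold of the tip link, had 3.06 and 5.51 normalized counts without Dox and 223 and 207 with it (5.39). Rbm24, a splicing regulator of hair cells and muscle, had 297 and 292 without Dox and 7329 and 6419 with it (4.54). Atp2b2, the calcium pump of stereocilia, rose from 44.5 and 43.0 to 644 and 448 (3.59). Rbm24 followed iAtoh1, with an effect of 3.64 there and 0.28 in iPou4f3. Ush1g (4.23), Atp2b2 (2.30) and Grxcr2 (3.52) were called in iPou4f3 and not in iAtoh1, and all 3 had called differences between iP+A and iAtoh1 (3.59, 2.65 and 3.90). The Ush1g call was lost without any 1 of their 8 libraries except iP+A No Dox replicate 2 (3.24 to 3.79), and the Grxcr2 call without iAtoh1 Dox replicate 1 (3.13). In the list as a whole, 1 member rose in iAtoh1, 10 in iPou4f3 and 19 in iGPA, beside 2.89%, 1.47% and 8.65% of all tested genes. The iP+A effect was larger than that of iAtoh1 in 9 members (2.09% of all genes) and smaller in 0 (0.689%). Against iPou4f3 it was larger in 1 (1.44% of all genes) and smaller in 2 (0.172%).

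Genes of the transduction apparatus were among those that did not rise. Tmc1, a pore subunit of the transduction channel, had 12.9 and 11.8 counts with Dox and 10.6 and 8.71 without (0.33), and Tmc2, its relative, had 17.2 and 16.4 against 19.3 and 18.4 (-0.16). Lhfpl5 was not called either (-0.17), but Tmie, another component of the channel complex, rose from 4.07 and 10.1 to 106 and 89.4 (3.71 ± 0.44). Pcdh15, the lower tip link cadherin, had 56.3 and 81.8 counts with Dox and 63.5 and 92.5 without, and its effect was -0.17 ± 0.36. In iPou4f3 the Pcdh15 effect was 2.43 and in iGPA 5.07. The difference of iP+A was -2.61 ± 0.50 from iPou4f3 (adjusted p = 0.00624, and -2.34 without a call when iP+A Dox replicate 1 was left out) and -5.24 ± 0.50 from iGPA (adjusted p = 2.65e-06). Ptprq, a stereocilia phosphatase, rose from 19.8 and 8.97 to 85.7 and 144 (2.96), but less than in iPou4f3 (5.63), a difference of -2.67 that lost its call without iP+A Dox replicate 1, iP+A No Dox replicate 1, iPou4f3 Dox replicate 1 or iPou4f3 No Dox replicate 2.

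Compared with iGPA, 7 hair bundle genes had a smaller effect in iP+A and 2 a larger one, beside 4.76% and 2.84% of all tested genes. Among the 7 were Tmie (-4.43), Espn (-2.42) and Tmc2 (-3.30). Slc17a8, the vesicular glutamate transporter of inner hair cells, had 6.26 and 4.43 counts in the Dox libraries of iP+A against a mean of 120 in iGPA, with a called difference of -4.53. Of the 21 tested genes of the hair cell synapse, channels and calcium buffers, 4 rose (2 without Dox replicate 1, when Tmem255b and Kcnn2, a potassium channel, at 1.24, were lost) and 1 fell. Cabp2, a calcium-binding protein of that synapse, had 1.13 and 1.02 counts without Dox and 40.1 and 39.0 with it (4.29). The fall, Cldn9 (-2.13), and the rise of Tmem255b (1.96) were not called with the replicate number as a block, nor without Dox replicate 1, Dox replicate 2 or No Dox replicate 2. Eya4, a transcriptional co-activator of the otic vesicle, rose from 66.0 and 94.7 to 997 and 969 (3.62), and 10 of 34 hair cell and otic factors rose and 2 fell (Sox2 and Gfi1b, a relative of Gfi1 in blood cells, at -1.69 and without a call, -1.16, when Dox replicate 1 was left out, which left 0 falls), while 7 rose in iAtoh1. Of the hair cell and otic factors, 4 rose in iPou4f3 and 14 in iGPA. Of all tested genes, 2.89% rose in iAtoh1, 1.47% in iPou4f3 and 8.65% in iGPA, while 4.7% rose and 2.58% fell in iP+A. Outside the lists for neurons and hair cells, Sst, the peptide somatostatin, had 9.03 and 5.74 counts with Dox in iP+A and a mean of 4862 in iGPA (difference -8.90). Dbx1, a homeodomain factor of spinal interneurons, had 0 and 0.961 counts with Dox against a mean of 395 in iGPA.

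**Figure D5:**
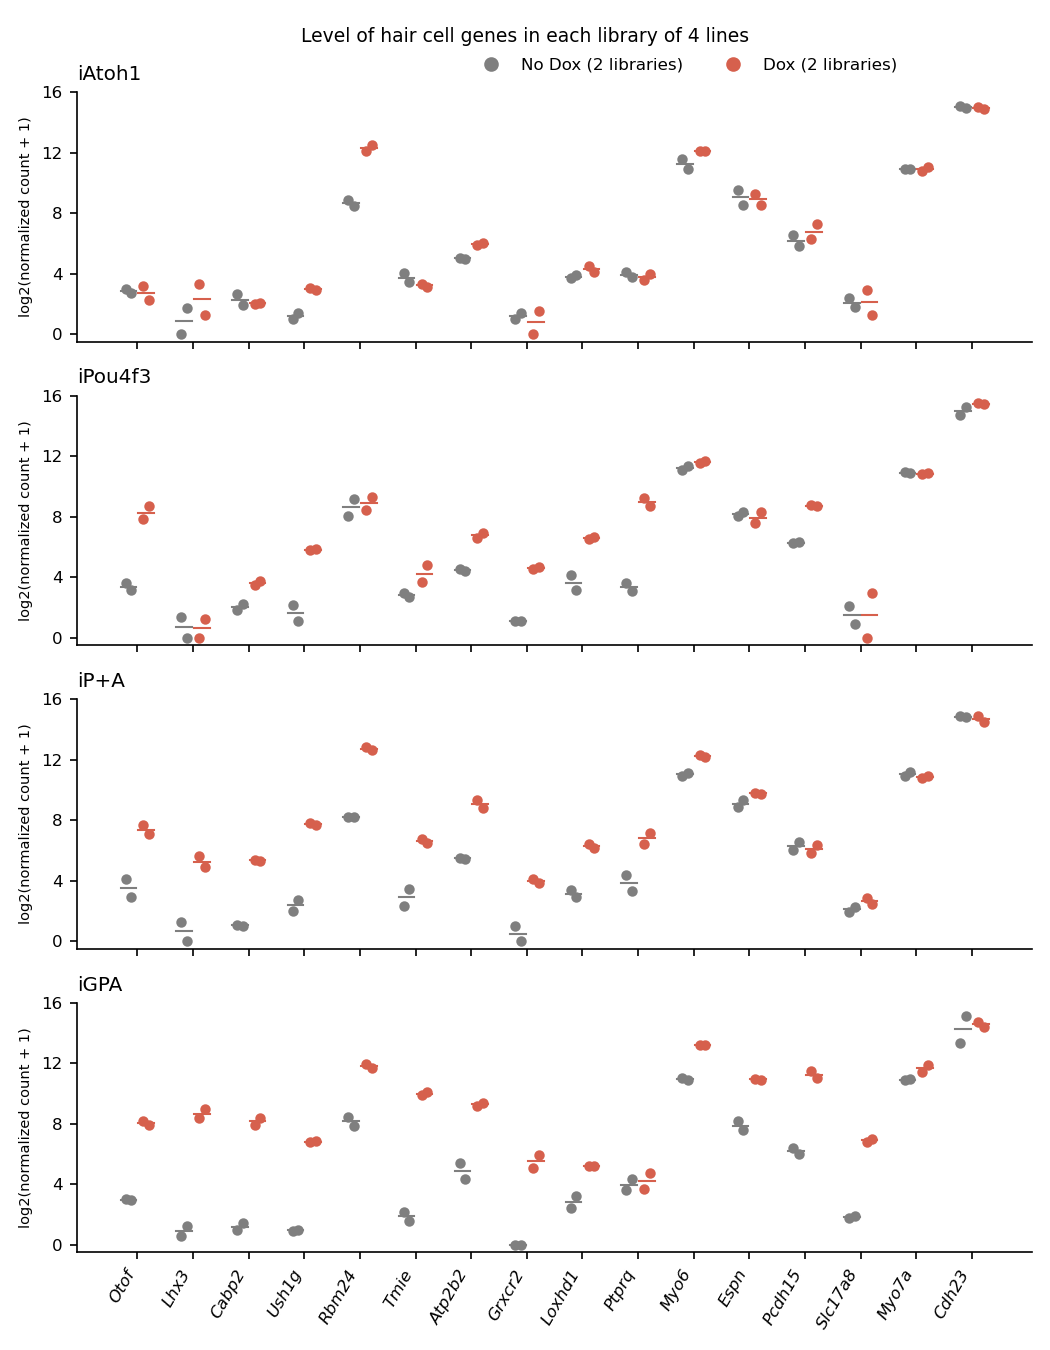
Level of 16 hair cell genes in the No Dox (grey, 2 per line) and Dox (red, 2 per line) libraries of iAtoh1, iPou4f3, iP+A and iGPA, as log2(normalized count + 1), with a short line at each mean. In iP+A the red points lie above the grey ones from Otof to Espn and overlap them in Pcdh15, Myo7a and Cdh23, while in iGPA Pcdh15 separates widely (5.07).

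Proliferation genes and cell cycle inhibitors were not called. None of the 35 cell cycle genes and none of the 12 inhibitors of cyclin-dependent kinases passed the limma thresholds (0 in each direction), although the median of the cell cycle list was -0.37 and 3 of the 35 had a positive log2 fold change. An unadjusted p under 0.05 was found for 26 of the 35 and for 3 of the 12. Ccnb1, a mitotic cyclin, had 11236 and 10247 normalized counts without Dox and 7485 and 6618 with it (-0.61 ± 0.10, adjusted p = 1.20e-04), below the fold threshold. Mki67, a marker of cycling cells, had 16530 and 17319 with Dox against 22385 and 20391 without (-0.34 ± 0.12, adjusted p = 0.0569), with both Dox libraries below both untreated ones.

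Pluripotency genes were lower with Dox, but their untreated replicates differed widely. Nanog, a core pluripotency factor, had 271 and 1596 normalized counts in the No Dox libraries and 83.3 and 183 with Dox (-2.41), and Sox2, which neural progenitors also express, had 882 and 4276 without Dox and 252 and 584 with it (-2.34). Pou5f1 had 798 and 4756 without Dox and 357 and 807 with it, was not called (it was with the replicate number as a block, -1.86), and its groups overlapped. Without 1 library at a time, the Nanog call was lost for each except No Dox replicate 1 (-2.97 to -1.13), and the Sox2 call for Dox replicate 1 and No Dox replicate 2 (-1.73 and -1.20). None of the 20 members had a log2 fold change above 0 (0 of 20), and, beside 2.58% of all tested genes, 11 were called down. This count was 0 without No Dox replicate 2, 1 without Dox replicate 1, 17 without No Dox replicate 1 and 3 with all 14 untreated libraries as controls. Summed over the list, the No Dox libraries held 27896 and 57248 counts and the Dox libraries 19126 and 20851.

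Some markers of other cell types of the EB moved with the comparison, which sets sorted against whole EBs, and their part in the neuronal results was not tested. Of all tested genes 4.7% rose and 2.58% fell in iP+A, and the counts of this paragraph stand beside these shares. The single falls in the endothelial list (4.55%) and the endoderm list (4.76%) are near the share of all genes and are not read as a result about these cell types. In the blood list 10 of 24 genes fell and 1 rose, the rise being lost without Dox replicate 2 or No Dox replicate 2. Hbb-bh1, an embryonic globin, had 65863 and 75927 counts without Dox and 7303 and 17792 with it (-2.63), and globin counts may be split between near-identical copies. The summed blood level was 134225 and 155350 in the No Dox libraries and 22675 and 49310 with Dox. The count of fallen blood genes was 4 without Dox replicate 1 and 19 with all untreated libraries as controls. The fall of Pecam1 (-1.80), an endothelial adhesion protein, was the only call among 22 endothelial genes (2 falls without No Dox replicate 2). In the mesoderm and fibroblast list of 30, 1 rose and 3 fell, the rise being Thy1 (4.24), which neurons also express. The count of falls was 6 with the replicate block and 1 without Dox replicate 2 or No Dox replicate 1, and each of the 3 (Prrx1, Col1a1 and Tagln) lost its call without at least 1 of the libraries. The endoderm list of 21 tested genes had 1 fall (3 with the replicate block, 2 without No Dox replicate 1 and 0 without Dox replicate 2 or No Dox replicate 2), and 17 cardiac genes had 0 calls by limma (1 at an unadjusted p under 0.05), with Myl2, a ventricular myosin light chain, listed at 0 in both Dox libraries. In summed normalized counts, the mesoderm and fibroblast list held 300443 and 462978 without Dox and 209637 and 246193 with it. The endothelial list held 23053 and 27147 without Dox and 21258 and 21317 with it, and the endoderm list 74601 and 106155 without Dox and 57106 and 59576 with it. For the cardiac list the sums overlapped, at 15684 and 29690 without Dox and 15797 and 23199 with it. Of the 17 tested markers of Merkel cells and gut secretory cells, which also depend on Atoh1, 4 rose and 1 fell, led by Cck, the peptide cholecystokinin (4.12), and the fall was Sox2. The summed level of the 20 dissociation stress genes was 145619 and 184385 without Dox and 150991 and 166211 with it, and 0 of them were called by limma (2 at an unadjusted p under 0.05).

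The largest falls included several genes listed at 0 in both Dox libraries. Cd3d, a T cell receptor component, had 98.8 and 203 normalized counts without Dox and 0 in both libraries with it. Zfp750, an epidermal factor, had 43.8 and 195 without Dox and 0 with it, but the untreated iGPA libraries were also at 0, and the fall was not called with all 14 untreated libraries as controls. The clustered or repeated loci Pcdhga7, Gm5797 and Rex2 were also at or near 0 with Dox, and their counts are uncertain because reads can be shared among copies or common exons. The Pcdhga7 call was lost without Dox replicate 1 (-4.97), and the Gm5797 call with all untreated libraries as controls (-4.02). Evi2b, a membrane protein of blood cells, had 70.8 and 69.4 counts without Dox and 23.1 and 0 with it (-3.86), and its call was lost without Dox replicate 2 (-1.56) and when only the groups compared were fitted. Hbb-y, another embryonic globin, went from 2080 and 2726 to 72.2 and 291 (-4.03), and Gbp2, an interferon-induced GTPase, from 66.1 and 259 to 4.53 and 12.5 (-3.94).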

How the data were processed

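RNA was profiled in 28 libraries (14 groups of 2). The authors removed adapters (cutadapt), assigned reads to mm9 transcripts (kallisto) and normalized gene counts (DESeq2), and the deposited values are log2(normalized count + 1). Whole reads could not be recovered from them, as 72.4% to 79.6% of low values lay within 0.05 of a whole multiple, so no count test was run. No column of the authors' own comparisons was used. Genes were named by Entrez ID from RefSeq genes (19314 of 19421) and placed on NCBIM37 (18724).

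Genes that reached 10 normalized counts in 2 or more libraries entered limma 3.58.1 (R 4.3.3) with a variance trend and a pseudocount of 1. The fit had 14 residual degrees of freedom, and p-values were adjusted per contrast by Benjamini-Hochberg. The script was tested on simulated data. Differences between lines were differences of their Dox effects and share the iP+A libraries. Same-numbered Dox and No Dox libraries deviated together from their group means in each of the 7 lines (correlations 0.103 to 0.246 across genes, 0.246 in iP+A), so the numbers were taken to pair the samples. The main fit did not use this pairing, so the effects and p-values given are unpaired. Pairing entered only in the alternative with the replicate block. The series describes replicates as clones, and equal numbers were not stated to be the same clone.

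Named genes were the transgenes, the study's markers, the 12 largest rises and 8 largest falls with non-overlapping groups and a mean of at least 50 in the higher group, up to 5 called members per list by size, the 6 largest differences from each other line, and defining members that were not called. Genes outside this rule were chosen as further list members after their values were seen. The members and lists were chosen with earlier results of these data known. Alternatives varied the pseudocount, filter, scaling, block, variance trend, fold threshold, controls and libraries. From the gene lists, 4 symbols were not found in the table (Neurod6, Pdzd7, Hba-a1 and Hbb-b2). Some members of the lists entered the counts but are not reported by name here.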

Additional observations from a re-analysis of the deposited data

Results flagged for a closer look

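Several Dox effects differed between iP+A and another line by a test of the difference itself, with a limma adjusted p over all tested genes. Myt1 rose by 10.05 in iP+A and 1.65 in iAtoh1 (log2), a difference of 8.40 ± 0.61 SE (adjusted p = 1.82e-07). The Sncg effect was 7.42 in iP+A and -0.15 in iAtoh1, a difference of 7.56 ± 0.52 (adjusted p = 1.57e-07). Draxin had an effect of 5.17 in iP+A and -0.45 in iPou4f3, which differ by 5.62 ± 0.31 (adjusted p = 7.24e-09). For Srrm4 the effect of 8.21 in iP+A was set against 2.25 in iPou4f3, a difference of 5.96 ± 1.20 (adjusted p = 8.70e-03), and against 1.09 in iGPA, a difference of 7.12 ± 1.20 (adjusted p = 5.00e-04). The Ntng1 effect was 5.98 in iP+A and -2.31 in iGPA, a difference of 8.30 ± 1.12 (adjusted p = 6.25e-05). The Ntng1 value rests on the untreated libraries, which had 3.13 and 2.63 normalized counts in iP+A and a mean of 146 in iGPA. Each of these differences kept its direction in every alternative fit that was run for it. The calls were kept except that of Srrm4 against iPou4f3, which was lost without iP+A Dox replicate 1 (5.65) or iPou4f3 No Dox replicate 1 (5.26). All untreated libraries served as controls only for Dox effects in iP+A, so the Ntng1 difference was not tested in that way. With those controls the Ntng1 effect in iP+A was 1.45 and was not called.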

How the results depend on the processing

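Of the 311 results recomputed for named genes (Dox effects in iP+A and differences from other lines), none reversed. A reversal was counted only where the sign changed and the result was called in the main or the alternative fit. Sign changes of results called in neither were not counted. Of the 277 that were called, 60 lost the call under an alternative with every library and 75 without 1 library. Fitting only the groups compared gave 192 falls in iP+A, 193 larger and 56 smaller effects than in iAtoh1, and 158 larger and 15 smaller than in iPou4f3. A log2 fold change of at least 1 gave 790 falls, 176 effects smaller than in iAtoh1, 48 smaller than in iPou4f3 and 727 larger than in iGPA. With the replicate block, iP+A had 805 rises and 508 falls, 63 effects were smaller than in iPou4f3 against 29 without it, and of these calls 5 were lost (Ceacam9 and Myt1l against iPou4f3, Scrt1 against iGPA, Cldn9 and Tmem255b) and 1 was gained (Pou5f1). Quantile normalization changed the split against iGPA from 478 larger and 802 smaller to 599 and 635. Rises in iP+A numbered 711 to 1094 over the alternatives with every library, the highest at the lower fold threshold.

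Leaving out 1 library gave 643 to 752 rises and 233 to 528 falls, the lowest without iP+A Dox replicate 1. Against iAtoh1 it gave 243 to 384 larger and 75 to 122 smaller effects, the 75 without iAtoh1 Dox replicate 2. Against iPou4f3 it gave 117 to 224 larger ones, the 117 without iP+A Dox replicate 1. Smaller ones numbered 14 to 44, with 14 without iP+A Dox replicate 1, iPou4f3 Dox replicate 1 or iPou4f3 Dox replicate 2, 16 without iPou4f3 No Dox replicate 2 and 44 without iP+A No Dox replicate 1. Against iGPA there were 337 to 516 larger and 602 to 862 smaller ones. Risen members numbered 6 to 7 in the bHLH list, 9 to 11 in both sensory lists, 24 to 29 in the cytoskeleton and RNA-binding list and 9 to 12 in the hair bundle list. Where counts moved, the cause was not tested.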

Other observations

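Genes outside the lists also differed between iP+A and 1 or both single lines. Ppp1r17, a phosphatase inhibitor of Purkinje cells, had 23.4 and 22.1 normalized counts without Dox in iP+A and 4392 and 3674 with it (7.40 ± 0.42). Its effect was 6.39 in iAtoh1 and 1.25 in iPou4f3. The difference from iPou4f3 was 6.15 ± 0.59 (limma adjusted p = 9.10e-06), whereas that from iAtoh1 was 1.02 ± 0.59 (adjusted p = 0.402) and was not called. Mmp24, a membrane metalloproteinase of sensory neurons, had 11.2 and 13.8 counts without Dox and 788 and 474 with it (5.51), while its effects in iAtoh1 (-0.38) and iPou4f3 (-0.53) were not called and the differences from both were (5.89 and 6.04). Tfap2b, an AP-2 factor of neural crest and sympathetic neurons, rose in iP+A (5.52), iPou4f3 (4.66) and iGPA (8.92). It was called down in iAtoh1 (-2.35), but at low counts, 16.2 and 6.93 without Dox and 1.16 and 1.44 with it. Its difference from iAtoh1 (7.86 ± 0.99), which includes this fall, was called, and that from iPou4f3 (0.86 ± 0.99) was not. The difference from iGPA was called at -3.41, but this call was lost on leaving out single libraries (-3.50 to -3.06).

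A set of genes that rose in iAtoh1 was not called in iP+A. Wnt10a, a secreted Wnt ligand, had 4.53 and 2.88 counts with Dox in iP+A and means of 90.8 in iAtoh1 and 618 in iGPA, and the difference from iAtoh1 was -5.46 ± 1.01. Gdf10, a BMP family ligand, had 37.1 and 34.6 counts with Dox in iP+A against a mean of 443 in iAtoh1 (difference -4.20 ± 0.58). Insrr, an insulin receptor family member, had 36.2 and 19.2 counts with Dox in iP+A and 274 on average in iAtoh1 (-4.01 ± 0.83). On the side of Pou4f3, Mstn, myostatin, was listed at 0 in both Dox libraries of iP+A and had a mean of 139 with Dox in iPou4f3.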
